A study of Mus musculus with 45 samples.

Results

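The genes described are 32 genes of glycolysis and gluconeogenesis, with the glucose and lactate transporters and the kinases that act at their 2 ends, chosen by name and found by symbol in the count tables. All 32 were listed among the 23366 genes of each library. Epithelial cells of the small intestine of mouse embryos on a mixed C57BL/6 CD1 background, wild type per the labels, had been sorted on the epithelial surface protein EpCAM at 500 cells per library, and their polyadenylated RNA was sequenced. A red fluorescent (tdTomato) lineage label had been started at E9.5 in cells of an Axin2 line or of an Id2 line. Axin2 is a target gene of Wnt signalling and Id2 encodes a protein that blocks basic helix-loop-helix transcription factors. The sorted populations were labelled cells whose Lgr5 state the labels do not state, Lgr5-positive labelled cells, Lgr5-positive unlabelled cells and Lgr5-negative unlabelled cells. Lgr5 is an R-spondin receptor and marker of intestinal stem cells in the adult. The Axin2 line gave posterior and anterior parts of the gut at E15.5 and undivided gut at E13.5. The Id2 line gave E13.5 gut only. The anterior part had no group of Lgr5-positive labelled cells analysed here, so 15 groups of 3 libraries, 45 in all, were compared. A replicate was 1 embryo at E15.5 and a pool of 3 embryos at E13.5, per the labels' protocols.

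In glycolysis, glucose enters through Slc2a transporters, is phosphorylated by hexokinase, committed by phosphofructokinase, split by aldolase and carried through the lower enzymes to pyruvate. Pyruvate is either reduced to lactate by lactate dehydrogenase and exported by monocarboxylate transporters, or oxidised in mitochondria, a step that the pyruvate dehydrogenase kinases restrain. Gluconeogenesis runs the path backwards with a few enzymes of its own, which the mature small intestine and the liver express. Most steps have several isozymes that differ between tissues, and proliferating and embryonic cells typically use those encoded by Hk2, Pkm and Ldha.

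Levels are given in CPM, the read count scaled to a common total of reads assigned to genes. Library totals over genes were 16521311 to 19702205 in the 33 Axin2 libraries and 26888154 to 37729425 in the 12 Id2 libraries. The 10 epithelial markers summed to 8500 to 11300 CPM in Axin2 libraries at E15.5, 3950 to 7340 CPM in Id2 libraries at E13.5 and 6030 to 8370 CPM in Axin2 libraries at E13.5, and none was at 0 in every library of any of these. Of 2 libraries that stood apart, replicates 1 and 3 of posterior Lgr5-positive unlabelled cells, the erythroid marker sums were 1900 and 1700 CPM, against 3.33 CPM in replicate 2. Calls of members that were lost without these libraries are named with their values. Calls in other gene lists were not examined without these libraries. In bulk RNA, fewer cells of a type and less RNA per cell cannot be told apart.

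Together the 32 genes held 7960 to 12600 CPM (median 10300) in the 21 Axin2 libraries of E15.5, 4410 to 7290 CPM (median 5330) in the Id2 libraries and 8010 to 11000 CPM (median 9530) in the 12 Axin2 libraries of E13.5. Divided by the length of their exons, to set genes beside each other, the levels were led by Ldha, the lactate dehydrogenase subunit of glycolytic tissues, with a median of 1373 CPM per kb over the 45 libraries (range 636 to 2043). Tpi1, the triose phosphate isomerase, followed with 660 CPM per kb (329 to 952), then Aldoa, the main aldolase, with 590 (348 to 944) and Pkm, the pyruvate kinase of embryonic and proliferating cells, with 534 (148 to 876). Pfkl, a phosphofructokinase, had 179, Gpi1, the glucose phosphate isomerase, 134.6, and the transporter Slc2a1 80.5 CPM per kb. At the other end stood the liver and intestinal gluconeogenic genes Pck1 (median 1.39 CPM per kb) and Fbp1 (0.647), the neuronal enolase Eno2 (0.0398) and the glucose phosphatase G6pc (median 0). In this order all 31 neighbouring pairs had overlapping ranges over the libraries, so the order of close neighbours is not fixed by these data.

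Eno1 and G6pc did not pass the filter on low counts and were not tested. Eno1, elsewhere the most widely expressed enolase, had 153 reads in all 45 libraries, and G6pc had 21 reads and was at 0 in 37 libraries. A low count need not be a low transcript level. Reads that fit more than 1 place are usually not assigned to a gene, and 72.2% of the 50-base windows of the Eno1 transcript occur in another annotated gene. The same share was 82.5% for Gapdh, 68% for Pgk1, 41.5% for Pgam1, 34.4% for Pkm, 27% for Ldhb and 25.3% for Gpi1, and at most 25% for the other 25 members. Gapdh, Pgk1, Pgam1 and Eno1 therefore have uncertain levels. Whether shared sequence also affects their differences between libraries was not tested. Pklr and Pfkp also overlap neighbouring genes (23.2% and 17.1% of windows), which counting without known strand cannot separate.

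Isozyme composition, taken as each gene's share of its family's CPM per kb, differed between settings in several families. Among the phosphofructokinases, Pfkl held a median of 80.5% (66.2 to 89.7%) of phosphofructokinase in the posterior part and 72.9% (66.3 to 78.8%) in the anterior part at E15.5, against 88.9% (79.6 to 93.4%) in the Id2 line and 93.4% (91.5 to 96.3%) in the Axin2 line at E13.5. The share of Pfkp, the platelet-type isozyme, was 16.0% (7.07 to 30.9%) in the posterior and 22.5% (16.9 to 29.0%) in the anterior part, against 3.77% (0.318 to 6.42%) in the Id2 line and 1.71% (0.162 to 3.33%) in the Axin2 line at E13.5. At E15.5 every library exceeded every E13.5 library in this share. Ldhb, the lactate dehydrogenase subunit of oxidative tissues, was 0.358% of lactate dehydrogenase in the posterior and 0.705% in the anterior part, against 5.12% in the Id2 line and 2.41% in the Axin2 line at E13.5, again without overlap between stages. Of the hexokinases Hk1 and Hk2, Hk2 held the larger share everywhere. Its medians were 79.6% and 73.7% in posterior and anterior parts, 93.6% in the Id2 line and 86.2% in the Axin2 line at E13.5. Pkm held 95.8 to 98.8% of pyruvate kinase by median, with the remainder in Pklr, the liver and red cell isozyme. Of the 2 pyruvate dehydrogenase kinases among the members, Pdk1 and Pdk3, Pdk1 held 31.2% in the posterior and 34.6% in the anterior part. It held 12.9% in the Id2 line and 30.6% in the Axin2 line at E13.5.

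**Figure D1:**
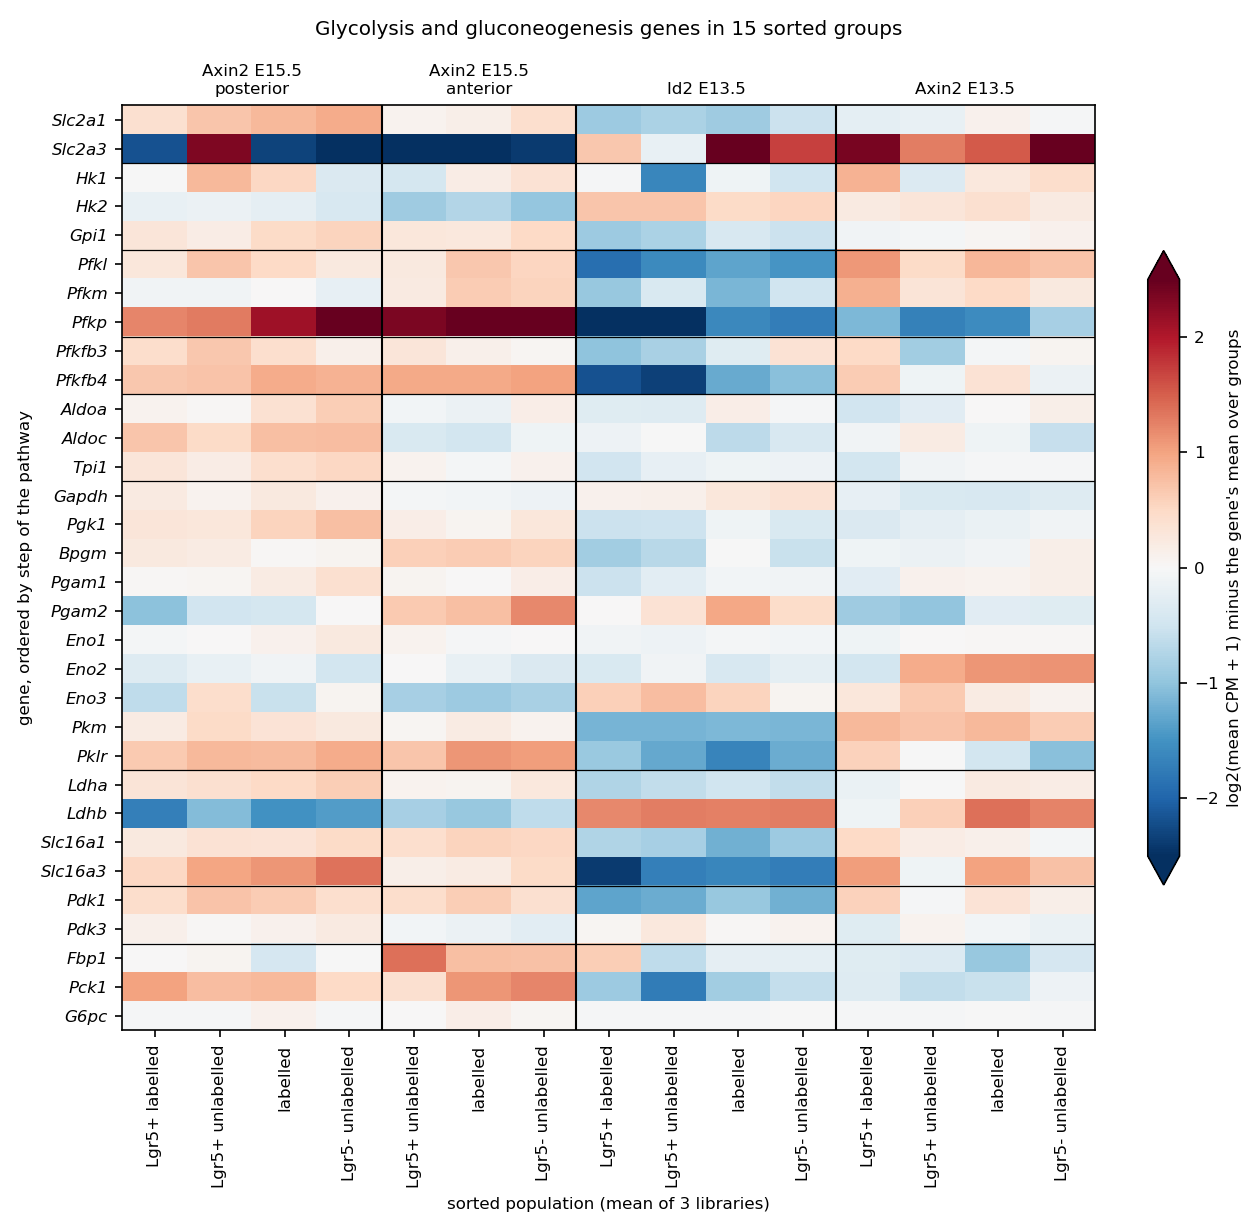
Mean level of each member in the 15 groups, as the log2 of mean CPM plus 1 minus the gene's mean over groups, with columns ordered by setting (Axin2 E15.5 posterior, Axin2 E15.5 anterior, Id2 E13.5, Axin2 E13.5) and then by sorted population, and rows by step of the pathway. Pfkp is high in the E15.5 columns, Ldhb is low there, and Slc2a3 is low there except in posterior Lgr5-positive unlabelled cells, while Pfkl, Pkm, Pdk1 and Slc16a3 are low in the Id2 columns; colour is limited to 2.5 either way.

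The first comparison asked how the genes differed between stages in the Axin2 line, with labelled, Lgr5-positive unlabelled and Lgr5-negative unlabelled cells on both sides (18 libraries of E15.5 against 9 of E13.5). At E15.5, 13 of the 30 tested members were higher and 6 lower than at E13.5 by edgeR's quasi-likelihood test at an adjusted p below 0.05, and 11 did not pass. Among all 15513 genes tested, 15.6% were called higher and 17.9% lower. The median log2 difference was 0.35 over the members and -0.04 over all genes. The members with the highest levels per kb, Ldha, Tpi1, Aldoa and Pkm, differed by -0.44 to 0.31. Over all tested members the differences ran from -5.30 in Slc2a3 to 3.77 in Pfkp. E15.5 and E13.5 also differ in pooling (1 embryo against 3) and in dissection (parts against undivided gut), which cannot be told apart from stage.

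At the point of entry, Slc2a1, the ubiquitous glucose transporter, had 226, 357 and 492 CPM as lowest, median and highest at E15.5, against 203, 249 and 280 CPM at E13.5. Its rise of 0.60 ± 0.12 (log2 scale, SE, adjusted p = 9.02e-05, edgeR's quasi-likelihood test) was accompanied by a split between gut parts, since all 9 posterior libraries lay above every E13.5 library while the anterior ones overlapped them. Slc2a3, the high-affinity transporter of neurons and early embryos, had 0, 0.493 and 78.1 CPM at E15.5, against 12.4, 28.9 and 80.8 CPM at E13.5. It fell by 5.30 ± 0.67 (adjusted p = 8.58e-08), and the groups overlapped only through the 2 erythroid-rich libraries, which had 50.6 and 78.1 CPM while the other 16 reached at most 1.21 CPM. Without those 2 libraries the difference was -6.31, and with the libraries of each replicate number summed it was -2.18 with an adjusted p of 0.138, both by the same test.

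Hk2, the hexokinase of glycolytic and insulin-sensitive cells, fell by 0.85 ± 0.13 (adjusted p = 3.97e-06, edgeR's quasi-likelihood test), with 19.1, 27.9 and 53.9 CPM at E15.5 against 43.9, 53.8 and 70.8 CPM at E13.5. The stages overlapped at the upper end of the E15.5 libraries. Hk1, the hexokinase of brain and red cells, had medians of 7.27 and 7.65 CPM and did not pass. Gpi1 was higher by 0.39 ± 0.09 (adjusted p = 6.95e-04), with medians of 471 CPM at E15.5 and 362 CPM at E13.5.

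Pfkp showed the largest rise of any tested member. It had 80.4, 204 and 384 CPM at E15.5, against 5.09, 15.9 and 30.4 CPM at E13.5. The stages did not overlap in any library, though the share of all genes without overlap is not reported here. Its log2 difference was 3.77 ± 0.38 (adjusted p = 6.84e-10, edgeR's quasi-likelihood test). It was called in each of the 4 populations taken alone, where the differences ran from 2.44 to 4.02. Pitrm1, the gene that shares sequence with the annotated Pfkp transcript, differed by -0.02 (adjusted p = 0.961). The other phosphofructokinases did not pass: Pfkl had medians of 709 and 851 CPM (-0.13 ± 0.14) and Pfkm, the muscle isozyme, 26.5 and 30.3 CPM (-0.13 ± 0.22) at E15.5 and E13.5. Pfkfb4, one of the bifunctional enzymes that make and remove the sugar phosphate activating phosphofructokinase, was higher by 0.99 ± 0.26 (adjusted p = 0.00257), and the related Pfkfb3 differed by 0.68 ± 0.40 without passing.

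**Figure D2:**
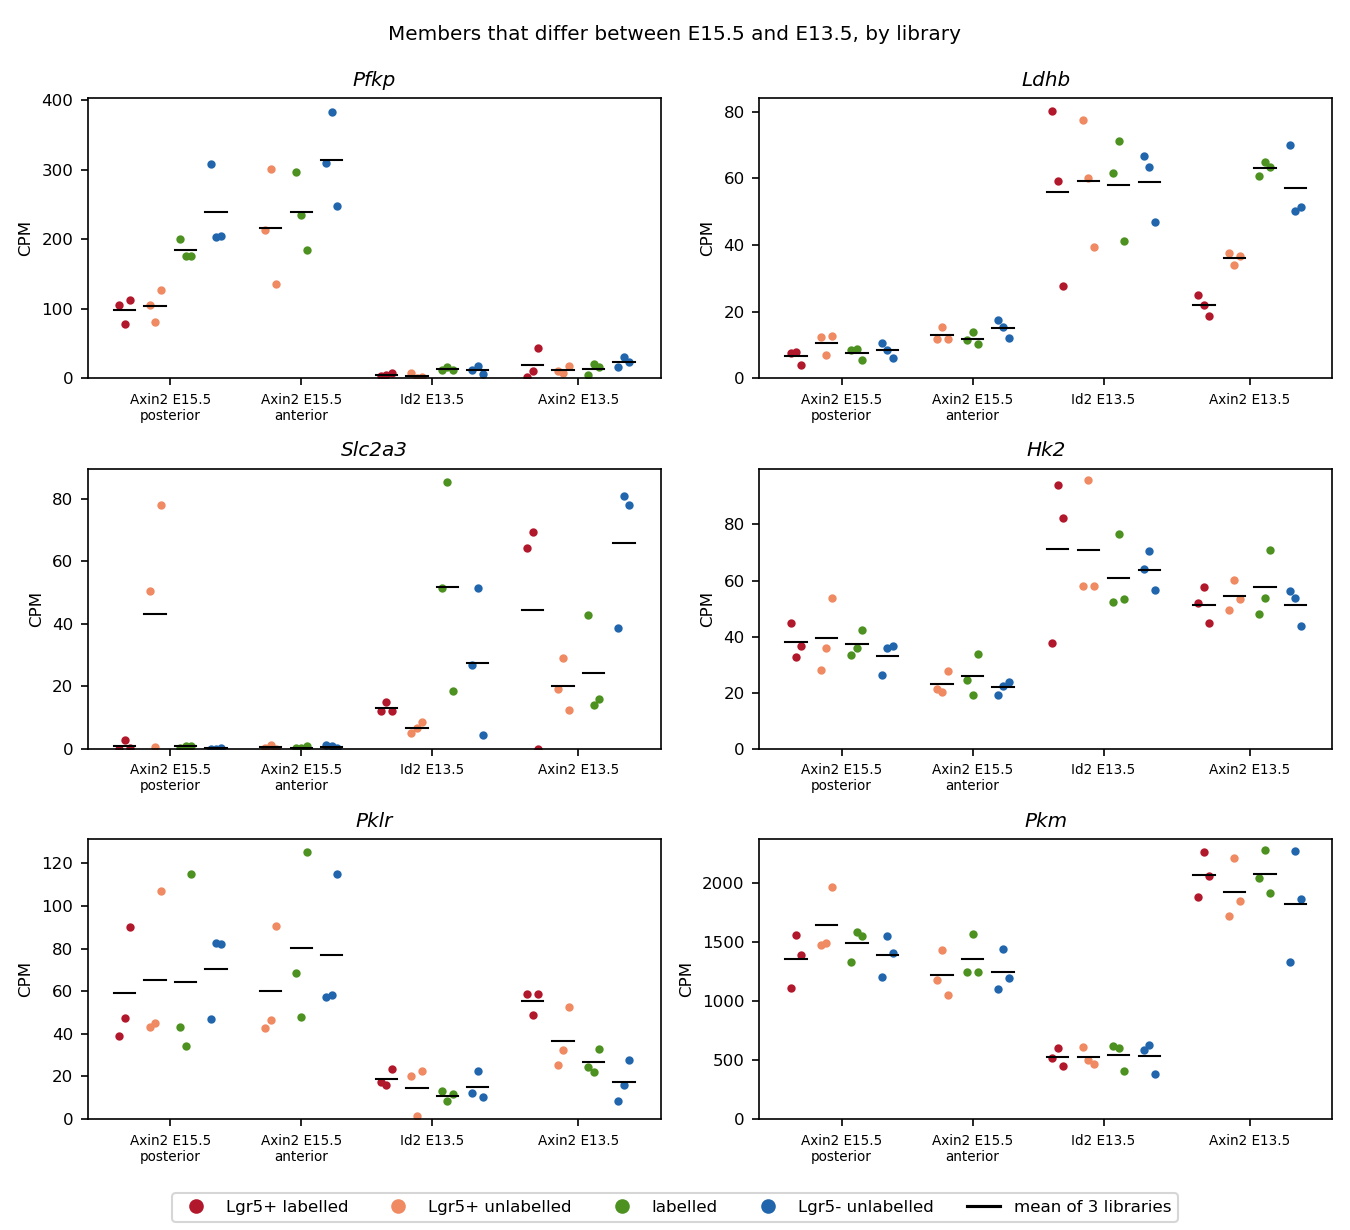
Level of Pfkp, Ldhb, Slc2a3, Hk2, Pklr and Pkm in each library (CPM, 1 point per library, lines at the mean of 3), with E15.5 posterior and anterior libraries left of the Id2 and Axin2 libraries of E13.5. All E15.5 points of Pfkp lie above, and all of Ldhb below, the Axin2 points of E13.5 used in the stage comparison, and 2 posterior libraries of Slc2a3 stand at 50.6 and 78.1 CPM.

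In the middle of the pathway Tpi1 was higher at E15.5 by 0.31 ± 0.11 (adjusted p = 0.0357, edgeR's quasi-likelihood test), with medians of 1285 CPM at E15.5 and 1079 CPM at E13.5. Aldoa, with 1666 and 1421 CPM, and Aldoc, the brain-type aldolase, with 42.2 and 37.1 CPM, did not pass. Of the 9 tested members from Gapdh to pyruvate kinase, 3 were higher and 3 lower. Pgk1, which catalyses an ATP-yielding step, had 35.3, 46.8 and 67.6 CPM at E15.5, against 30.5, 31.8 and 42.4 CPM at E13.5, and was higher by 0.56 ± 0.11 (adjusted p = 5.13e-05). Gapdh, with 6.87 and 5.03 CPM by median, was higher by 0.51 ± 0.18 (adjusted p = 0.029). Pgam1, Pgam2 and Bpgm, which move the phosphate group within phosphoglycerate, did not pass, at 0.08, 1.27 and 0.43.

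The pyruvate kinases moved in opposite directions. Pklr had 34.5, 58.0 and 125 CPM at E15.5, against 8.45, 25.3 and 52.7 CPM at E13.5, a rise of 1.48 ± 0.30 (adjusted p = 1.95e-04, edgeR's quasi-likelihood test). Pkm had 1055, 1423 and 1966 CPM at E15.5, against 1333, 1913 and 2276 CPM at E13.5, and fell by 0.44 ± 0.09 (adjusted p = 2.00e-04). The ranges overlapped for both, and Pkm remained far the larger share. The difference of Hcn3, the gene that shares sequence with the annotated Pklr transcript, is not reported here. Among the enolases, Eno2 had 0, 0.110 and 0.628 CPM at E15.5, against 0.857, 1.65 and 3.52 CPM at E13.5, a fall of 3.97 ± 0.76 (adjusted p = 1.01e-04) at a level of few reads. Its stages did not overlap (share of all genes not reported here), but in Lgr5-positive labelled cells, which the comparison left out, all 3 libraries of E13.5 were at 0. Eno3, the muscle enolase, was lower by 0.74 ± 0.21 (adjusted p = 0.00587), with medians of 13.6 CPM at E15.5 and 30.3 CPM at E13.5.

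Around lactate, Ldhb gave the smallest adjusted p of all members. It had 5.52, 11.5 and 17.4 CPM at E15.5, against 33.9, 51.4 and 70.1 CPM at E13.5. The stages were fully separate, while the share of all genes so separated is not reported here. The fall was 2.19 ± 0.15 (adjusted p = 1.57e-14, edgeR's quasi-likelihood test), called in each of 4 populations at -2.69 to -1.59. Ldha differed little by comparison, with 2283, 3060 and 3872 CPM at E15.5 against 2332, 2602 and 3117 CPM at E13.5, and was higher by 0.23 ± 0.08 (adjusted p = 0.0238). Slc16a1, the widespread lactate carrier, was higher by 0.41 ± 0.12 (adjusted p = 0.00772), and Slc16a3, the exporter of strongly glycolytic cells, differed by 0.23 ± 0.26 and did not pass. Pdk1, a kinase that switches off pyruvate dehydrogenase, had 144, 199 and 262 CPM at E15.5 against 114, 147 and 193 CPM at E13.5 and was higher by 0.44 ± 0.10 (adjusted p = 5.76e-04), whereas Pdk3 differed by 0.08 ± 0.11 and did not pass.

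Both gluconeogenic members that could be tested were higher at E15.5, at low levels. Pck1, which makes phosphoenolpyruvate from oxaloacetate, had 2.04, 6.596 and 11.2 CPM at E15.5, against 0.804, 2.76 and 3.50 CPM at E13.5, a rise of 1.61 ± 0.61 (adjusted p = 0.0397, edgeR's quasi-likelihood test). Fbp1, the fructose bisphosphatase of liver and kidney, had medians of 2.16 CPM at E15.5 and 0.161 CPM at E13.5 and was higher by 2.31 ± 0.83 (adjusted p = 0.0282). The calls of Pck1, Fbp1, Tpi1, Gapdh and Ldha were lost on leaving out single libraries, in 10, 6, 5, 4 and 1 cases. Without both erythroid-rich libraries Pck1 differed by 1.56 (adjusted p = 0.0694, edgeR's quasi-likelihood test), Fbp1 by 2.12 (adjusted p = 0.059), Gapdh by 0.53 (adjusted p = 0.0502) and Ldha by 0.21 (adjusted p = 0.0748), while the other 15 calls held. Of the 19 called members, 16 had the same sign in all 4 populations taken alone, the exceptions being Eno2, Pdk1 and Slc16a1, each with the other sign in Lgr5-positive labelled cells. Each population alone called fewer members: 1 higher and 4 lower in labelled cells (all genes 5.43 and 6.98%), 2 and 2 in Lgr5-positive unlabelled cells (4.68 and 4.82%) 7 and 4 in Lgr5-negative unlabelled cells (5.71 and 7.59%), and 6 and 3 in Lgr5-positive labelled cells of the posterior part against E13.5 (8.36 and 6.21%).

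**Figure D3:**
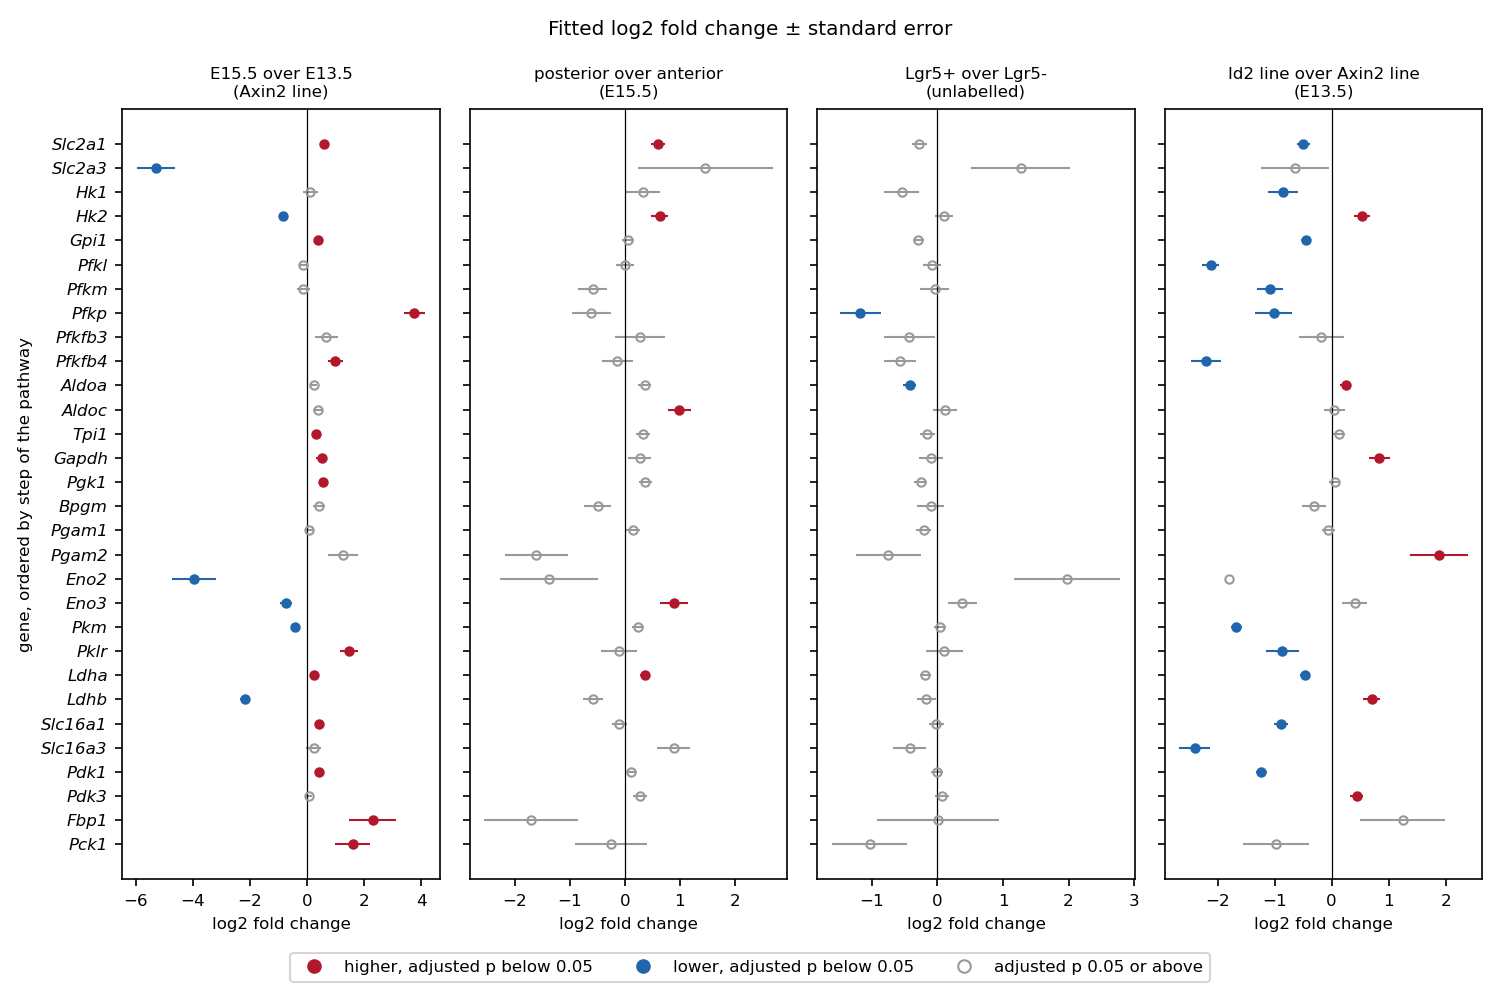
Log2 difference with its standard error for the 30 tested members in 4 comparisons (E15.5 over E13.5, posterior over anterior, Lgr5-positive over Lgr5-negative, Id2 over Axin2), filled in red (higher) or blue (lower) where the adjusted p was below 0.05. Stage differences reach from -5.30 for Slc2a3 to 3.77 for Pfkp, posterior differences stay within smaller bounds, and the Id2 differences are mostly negative; Eno2 is drawn without a bar in the Id2 comparison because its error exceeds the axis.

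Other genes of central metabolism, taken from lists by pathway, were counted by the same edgeR test. Of 23 genes of pyruvate oxidation and the citric acid cycle, 21 were higher at E15.5 and none lower (median 0.58), among them Cs, the citrate synthase, at 0.78, Sdhd at 0.74 and Suclg1 at 0.70. Of 22 genes of the respiratory chain and ATP synthase, 20 were higher and none lower (median 0.52), among them Cyc1, cytochrome c1, at 0.97 and Uqcrfs1 at 0.82. The pentose phosphate list had 4 of 8 higher, among them Taldo1 at 0.61 and Pgd at 0.68. Of 31 tested genes of other sugar steps, 16 were higher and 2 lower, among them Slc5a1, the intestinal sodium-glucose carrier, at 1.55. A list of hypoxia-response genes had 8 of 24 higher and 2 lower. Egln3, an oxygen-sensing hydroxylase, stood at 3.52 and Car9, a carbonic anhydrase, at 2.91, while Hif1a, the hypoxia factor itself, was lower at -0.47. None of 12 proliferation genes was called by edgeR's quasi-likelihood test.

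Markers of other cells differed with stage too, where 15.6% of all genes were called higher and 17.9% lower. Of 8 tested mesenchymal markers 0 were higher and 2 lower, and their sum was 14 to 174 CPM in Axin2 libraries at E15.5 against 112 to 1480 CPM at E13.5. Neural markers had 1 higher and 4 lower of 8, with sums of 8.82 to 61 CPM against 9.98 to 49.7 CPM. Pancreatic markers had 3 of 8 higher, with sums of 22.4 to 1140 CPM against 3.22 to 51.1 CPM, and erythroid markers 2 of 6 higher. Liver markers had 1 higher and 4 lower of 8, with sums of 176 to 572 CPM against 185 to 951 CPM, and immune markers 1 of 5 higher. Of the 10 epithelial markers 8 were higher and 0 lower (median 0.63). No smooth muscle or endothelial marker was called by edgeR's quasi-likelihood test. Their part in the members' differences was not tested.

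**Figure D4:**
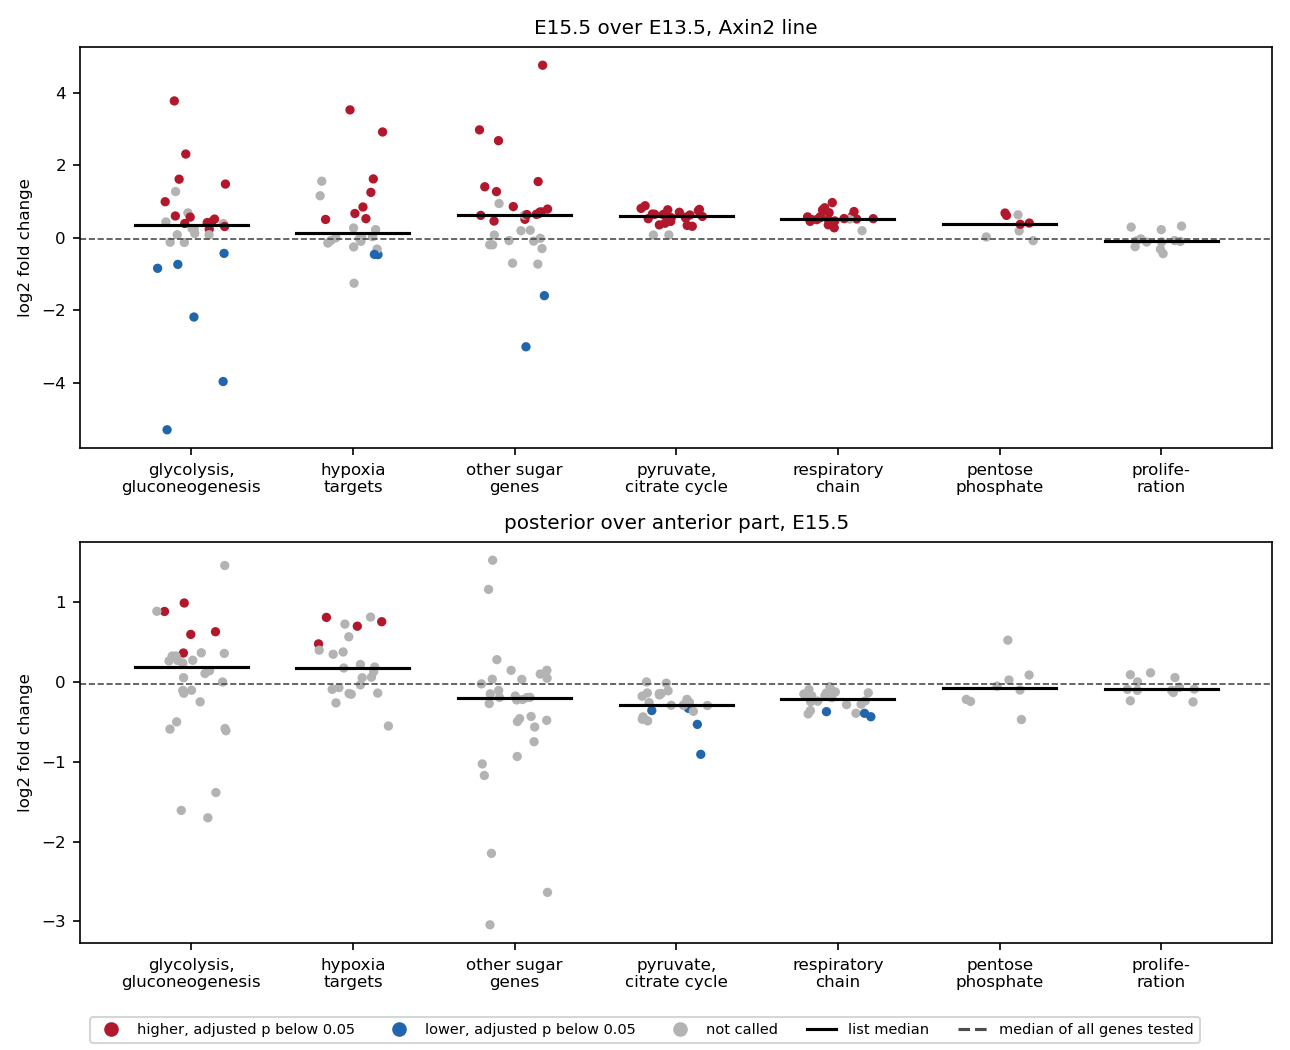
Log2 differences of the tested genes in 7 lists, for E15.5 over E13.5 and for posterior over anterior, 1 point per gene, with a line at each list's median and a dashed line at the median of all genes. The citric acid cycle and respiratory lists lie above 0 with stage and mostly below 0 in the posterior part, whereas the glycolysis list spreads to both sides with stage and has a posterior median of 0.19.

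The second comparison set the posterior against the anterior part of the gut at E15.5 (9 libraries each, the same 3 populations). In the posterior part 5 of 30 members were higher and 0 lower, where 1.86% of all genes were higher and 1.78% lower, by edgeR's quasi-likelihood test. At an unadjusted p below 0.05, 4 members were lower, as were 1042 of all 15513 genes. DESeq2 called 2 members lower and limma voom 6, against 378 and 1538 of all genes. The median log2 difference was 0.19 over the members and -0.02 over all genes. The 5 genes act at entry of glucose (Slc2a1), its phosphorylation (Hk2), the aldolase step (Aldoc), the enolase step (Eno3) and lactate formation (Ldha). Aldoc held a median of 3.08% of the CPM per kb of Aldoa and Aldoc together in the posterior part and 1.99% in the anterior part. Aldoa, which held the rest, did not pass.

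Slc2a1 was the one of the 5 whose parts did not overlap in the populations compared. It had 358, 456 and 492 CPM as lowest, median and highest in the posterior part, against 226, 305 and 356 CPM in the anterior part. The difference was 0.60 ± 0.13 (SE, adjusted p = 0.0037, edgeR's quasi-likelihood test). With posterior Lgr5-positive labelled cells included, the lowest posterior value was 306.5 CPM, within the anterior range. The share of all genes whose parts do not overlap is not reported here. Aldoc had 39.9, 65.3 and 96.8 CPM in the posterior part, against 14.4, 31.0 and 46.1 CPM in the anterior part, a difference of 0.99 ± 0.21 (adjusted p = 0.00297). Its parts overlapped by few libraries. Hk2 had 26.2, 36.0 and 53.9 CPM in the posterior part, against 19.1, 22.4 and 33.8 CPM in the anterior part, a difference of 0.63 ± 0.16 (adjusted p = 0.0149). Hk2 was lower at E15.5 than at E13.5 and, within E15.5, higher in the posterior part. Ldha had 2861, 3402 and 3872 CPM in the posterior part, against 2283, 2656 and 3113 CPM in the anterior part, a difference of 0.37 ± 0.09 (adjusted p = 0.0158). The stage and part comparisons share the E15.5 libraries and are not independent.

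Eno3 had 10.6, 21.9 and 50.5 CPM in the posterior part, against 10.1, 12.1 and 14.9 CPM in the anterior part, a difference of 0.89 ± 0.25 (adjusted p = 0.0364, edgeR's quasi-likelihood test). The anterior libraries were close together and the posterior ones spread widely. Its highest posterior values, 50.5, 37.6 and 35.2 CPM, included both erythroid-rich libraries. Without these 2 libraries Eno3 differed by 0.39 (adjusted p = 0.695), Aldoc by 1.03 (adjusted p = 0.0111), Slc2a1 by 0.54 (adjusted p = 0.0593), Hk2 by 0.59 (adjusted p = 0.0816) and Ldha by 0.32 (adjusted p = 0.178), so that Aldoc alone of the 5 passed (1.06% of all genes higher and 0.637% lower), by edgeR's quasi-likelihood test. Ldhb was then lower in the posterior part by 0.78 (adjusted p = 0.0427, same test). Eno3 also lost its call on leaving out 14 of the 18 libraries in turn.

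All 5 had the same sign in each of 3 populations taken alone, although none was called within any of them, where 0.193, 0.258 and 0.206% of all genes were higher and 0.0774, 0.232 and 0.122% lower in labelled, Lgr5-positive unlabelled and Lgr5-negative unlabelled cells. Replicate numbers paired the libraries in labelled cells but not in the other populations. With replicate number as a block, edgeR's quasi-likelihood test called 10 members higher and 2 lower (3.32 and 2.66% of all genes), adding Aldoa, Pgk1, Pkm, Slc16a3 and Tpi1 to the higher ones and Ldhb and Bpgm to the lower ones. The E15.5 libraries of the parts compared, fitted on their own, called 10 higher and 6 lower (5.81 and 6.74%). With the libraries of each replicate number summed, Slc2a1 alone passed, at 0.58 (adjusted p = 0.0123). In the fit of all libraries Ldhb differed by -0.58 ± 0.18 (adjusted p = 0.0569), Aldoa by 0.36 ± 0.11 (adjusted p = 0.0763), Pgk1 by 0.37 ± 0.12 (adjusted p = 0.0814) and Slc16a3 by 0.89 ± 0.30 (adjusted p = 0.101), none of which passed. Pancreatic markers were lower in the posterior part for 6 of 8, with sums of 22.4 to 219 CPM against 122 to 1140 CPM in the anterior part. Erythroid markers were higher for 2 of 6. Of 8 mesenchymal markers 1 was called, Vim, higher by 1.83, and 5 differences were positive and 3 negative. Liver markers had 1 higher and 2 lower of 8, and no epithelial, neural, smooth muscle, endothelial or immune marker was called by edgeR's quasi-likelihood test. Their part in the differences was not tested.

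**Figure D5:**
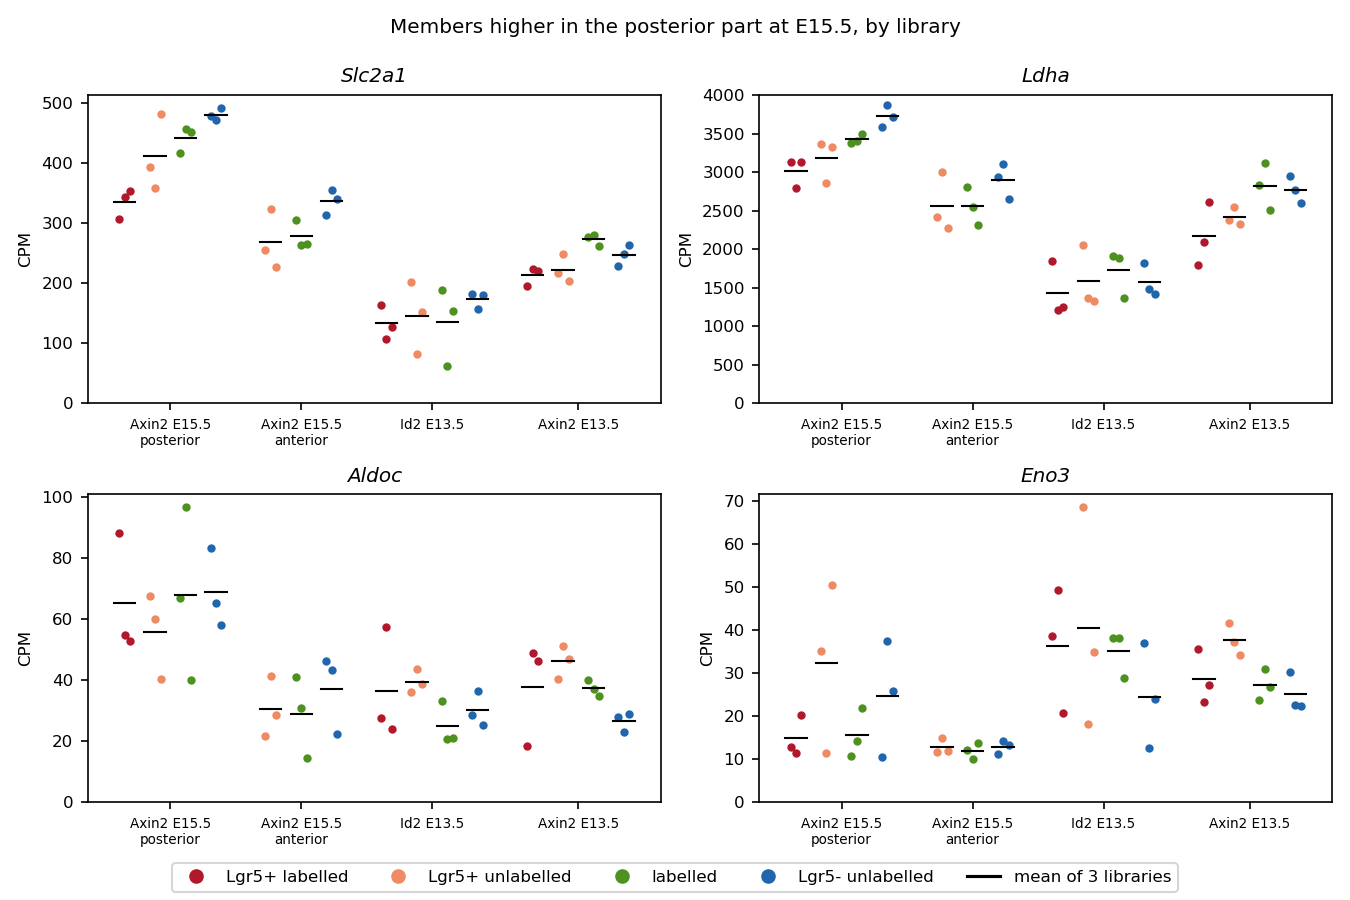
Level of Slc2a1, Ldha, Aldoc and Eno3 in each library (CPM, 1 point per library) by gut part and sorted population, posterior left of anterior, with the Id2 and Axin2 libraries of E13.5 to their right and a line at each group's mean. Posterior Slc2a1 values of the 3 populations compared (358 to 492 CPM) all exceed the anterior ones (226 to 356 CPM), while 3 posterior libraries carry the upper values of Eno3.

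Genes outside glycolysis differed between the parts in both directions. The hypoxia-response list had 4 of 24 higher and 0 lower in the posterior part: P4ha1, a collagen prolyl hydroxylase, at 0.81, Bnip3 and Bnip3l, mitophagy receptors, at 0.76 and 0.48, and Plod2, a lysyl hydroxylase, at 0.70. The citric acid cycle list had 0 higher and 4 lower of 23, among them Dlat at -0.90, Sdhd at -0.36 and Cs at -0.33. The respiratory list had 0 higher and 3 lower of 22, among them Cyc1 at -0.43 and Ndufs1 at -0.37, and all 22 of its differences were negative. No gene of the pentose phosphate list, the other sugar steps or the proliferation list was called by edgeR's quasi-likelihood test. Whether the calls in these lists hold without the erythroid-rich libraries was not examined.

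The promoters of the 5 members that were higher in the posterior part are shown because the hypoxia-response list was counted beside them and the letters ACGTG and GCGTG form the core of the element that hypoxia factors bind. Each sequence is the 150 bases before the first-listed transcription start, 5′ to 3′ on the gene's strand, from RefSeq's GRCm38.p6 annotation, and capitals mark ACGTG or GCGTG on either strand (CACGT and CACGC when read on the other), which overlap within CACGTG.
Slc2a1, chr4:119108595-119108744, plus strand: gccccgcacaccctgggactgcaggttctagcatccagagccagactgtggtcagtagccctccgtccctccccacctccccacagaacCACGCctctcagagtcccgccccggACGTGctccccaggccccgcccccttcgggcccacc
Hk2, chr6:82774455-82774604, minus strand: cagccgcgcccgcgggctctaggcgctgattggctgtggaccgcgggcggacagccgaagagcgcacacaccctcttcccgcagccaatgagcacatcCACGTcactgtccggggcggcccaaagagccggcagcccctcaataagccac
Aldoc, chr11:78322923-78323072, plus strand: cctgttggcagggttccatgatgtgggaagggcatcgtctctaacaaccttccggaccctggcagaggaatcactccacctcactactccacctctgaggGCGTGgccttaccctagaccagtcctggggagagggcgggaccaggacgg
Eno3, chr11:70657026-70657175, plus strand: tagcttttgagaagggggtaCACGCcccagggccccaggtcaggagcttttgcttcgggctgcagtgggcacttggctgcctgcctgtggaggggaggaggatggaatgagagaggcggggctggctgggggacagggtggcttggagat
Ldha, chr7:46845654-46845803, plus strand: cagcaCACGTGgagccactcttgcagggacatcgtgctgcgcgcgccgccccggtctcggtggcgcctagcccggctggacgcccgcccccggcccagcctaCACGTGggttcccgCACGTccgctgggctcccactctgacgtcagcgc
In the 250 bases before the first-listed start, Hk2, Ldha and Slc2a1 held ACGTG, and Aldoc, Eno3 and Slc2a1 held GCGTG. Sequences were matched for 31 of the 32 members, all but Slc2a3. ACGTG occurred in 10 of these 31 (32.3%), against 16.6% of 27025 genes, and GCGTG in 13 (41.9%), against 28.2%. Ldha carried 2 CACGTG palindromes and a further ACGTG match within the letters printed. A match of 5 letters describes the sequence and does not show that a factor binds there.

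The third comparison set Lgr5-positive against Lgr5-negative unlabelled cells, averaged over the 4 settings (12 libraries each). Lgr5 itself was higher in the Lgr5-positive cells by 2.55 ± 0.39 (adjusted p = 8.06e-05, edgeR's quasi-likelihood test). No member was higher and 2 of 30 were lower, where 1.34% of all genes were higher and 1.21% lower. At an unadjusted p below 0.05, 1 member was higher and 8 were lower, against 1169 and 904 of all 15513 genes. DESeq2 and limma voom called 0 members higher, against 407 and 597 of all genes. Of the 30 differences 21 were negative, with a median of -0.13 against 0.03 over all genes.

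Aldoa had 911, 1325 and 1752 CPM as lowest, median and highest in Lgr5-positive cells, against 1219, 1728 and 2421 CPM in Lgr5-negative cells, and was lower by 0.42 ± 0.10 (SE, log2 scale, adjusted p = 0.0108, edgeR's quasi-likelihood test). The ranges overlapped across settings. In the posterior part its Lgr5-positive libraries had 1610, 1399 and 1562 CPM, all below the 2170, 2421 and 2296 CPM of Lgr5-negative libraries. The difference was negative in each of the 4 settings, from -0.71 to -0.26, and stayed called on leaving out any 1 library, although no setting alone called it. Pfkp had 0.855, 49.1 and 301 CPM in Lgr5-positive cells, against 5.64, 117 and 384 CPM in Lgr5-negative cells, a difference of -1.18 ± 0.32 (adjusted p = 0.0326). The ranges span both stages, and the difference within settings was -1.90 to -0.57. Its call was lost on leaving out 13 of the 24 libraries in turn. Without the erythroid-rich libraries Pfkp differed by -1.27 (adjusted p = 0.106, same test) and Aldoa by -0.455 (adjusted p = 0.0335). With replicate number as a block 4 members were lower, the others being Gpi1 and Slc2a1 (2.85% of all genes higher and 2.84% lower).

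Ldhb, not called in the averaged comparison, is described here by its values in the 4 populations at E13.5 in the Axin2 line. Its libraries had 25.1, 22.1 and 18.8 CPM in Lgr5-positive labelled cells, 37.7, 33.9 and 36.5 CPM in Lgr5-positive unlabelled cells, 60.8, 64.8 and 63.4 CPM in labelled cells of unstated Lgr5 state and 70.1, 50.2 and 51.4 CPM in Lgr5-negative unlabelled cells. The 2 Lgr5-positive groups lay below the 2 others in every library, while the tested difference between unlabelled cells was -0.70 (adjusted p = 0.667, edgeR's quasi-likelihood test). This separation was itself not tested, and the share of all genes that separate in this way is not reported here. In the Id2 line at the same stage the 4 populations overlapped, with 27.7 to 80.2 CPM over all. Slc2a3 in the posterior part differed by 9.23 between Lgr5-positive and Lgr5-negative unlabelled cells (adjusted p = 0.0209, edgeR's quasi-likelihood test, with 0.329% of all genes higher and 0.0645% lower), with 50.6, 0.644 and 78.1 CPM in Lgr5-positive libraries, 2 of them the erythroid-rich ones, against 0, 0 and 0.182 CPM in Lgr5-negative libraries. Averaged over the 4 settings Slc2a3 differed by 1.27 with these libraries and by -0.24 without them, neither of which passed.

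Beside these values, 3 of 12 proliferation genes were higher in Lgr5-positive cells, namely Aurkb, Mki67 and Top2a, and all 12 differences were positive. The citric acid cycle list had 2 of 23 lower, Cs at -0.38 and Pdha1 at -0.40, and the respiratory list had 1 of 22 lower with all 22 differences negative. Of 31 genes of other sugar steps 1 was higher, Slc5a1 at 0.57, and 1 lower, with 21 differences negative. All 8 tested mesenchymal markers had positive differences, 1 of them called. Their sum in the posterior part was 141 to 174 CPM in Lgr5-positive and 42.7 to 88.8 CPM in Lgr5-negative unlabelled cells, and in the Axin2 line at E13.5 it was 451 to 557 CPM and 112 to 149 CPM. The part of mesenchymal RNA in the members' differences was not tested.

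The lineage label made no difference that passed. Between Lgr5-positive labelled and Lgr5-positive unlabelled cells (9 libraries each) 0 of 30 members were called in either direction by edgeR's quasi-likelihood test, as were 0% of all genes. At an unadjusted p below 0.05, 1 was higher and 3 were lower. DESeq2 called 1 lower, Eno2, at -3.55 (adjusted p = 0.0285), and limma voom 0. Of all genes these methods called 85 and 0 lower. Between labelled cells of unstated Lgr5 state and Lgr5-negative unlabelled cells (12 libraries each) 0 were called, again with 0% of all genes. At an unadjusted p below 0.05, 0 members differed, against 347 of all genes higher and 198 lower. DESeq2 and limma voom called 0 members, where DESeq2 called 29 of all genes higher and 24 lower.

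Whether the Lgr5 difference itself changed with line or with stage was tested as a difference of differences. For Id2 over Axin2 at E13.5, 0 members and 0% of all genes were called by edgeR's quasi-likelihood test. At an unadjusted p below 0.05, 0 members were higher and 1 lower, against 240 and 346 of all genes. DESeq2 and limma voom called 0 members, where DESeq2 called 16 of all genes higher and 27 lower. For E15.5 over E13.5 in the Axin2 line 0 members were called, against 0.0774% of all genes higher and 0.0902% lower. At an unadjusted p below 0.05, 2 members were higher and 1 lower, against 504 and 233 of all genes. DESeq2 called 1 higher there, Slc2a3, at 6.21 (adjusted p = 0.0494), against 93 of all genes higher. Without the 2 erythroid-rich libraries edgeR's test called 0 members.

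The last comparison set the Id2 line against the Axin2 line at E13.5, all 4 populations on both sides (12 libraries each). In the Id2 line 6 of 30 members were higher and 13 lower by edgeR's quasi-likelihood test, where 30.4% of all genes were higher and 28.8% lower. The median log2 difference was -0.46 over the members and 0.08 over all genes. The lines also differ in library depth and in the share of reads assigned to no gene, which was 33.4 to 49% in the Id2 libraries and 23.9 to 29.4% in the Axin2 libraries. Reads aligned to more than 1 place made up 20.99 to 26.1% of reads in the Id2 libraries and 14.12 to 20.69% in the Axin2 libraries of E13.5. Line and these features cannot be told apart. For members with shared sequence, such as Gapdh and Pkm, the effect of such reads was not tested. This comparison and that of stages share Axin2 libraries of E13.5.

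Pkm had 383, 551 and 626 CPM in the Id2 line, against 1333, 1976 and 2276 CPM in the Axin2 line, and was lower by 1.67 ± 0.09 (SE, adjusted p = 4.98e-17, edgeR's quasi-likelihood test). Pfkl had 111, 161 and 248 CPM in the Id2 line, against 443, 922 and 1250 CPM in the Axin2 line, lower by 2.12 ± 0.15 (adjusted p = 3.28e-15). Neither gene's lines overlapped in any library, and the share of all genes that separate in this way is not reported here. All 3 phosphofructokinases were lower in the Id2 line, Pfkm by 1.08 ± 0.23 (adjusted p = 9.58e-05) with medians of 10.8 and 32.5 CPM, and Pfkp by 1.02 ± 0.32 (adjusted p = 0.00659) with 7.06 and 15.6 CPM in the Id2 and Axin2 lines. Pfkfb4 had 0.744, 1.28 and 6.505 CPM in the Id2 line, against 4.65, 9.84 and 24.6 CPM in the Axin2 line, lower by 2.21 ± 0.26 (adjusted p = 2.43e-09).

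Pdk1 had 46.2, 56.3 and 83.5 CPM in the Id2 line, against 114, 162 and 231 CPM in the Axin2 line, lower by 1.23 ± 0.10 (adjusted p = 1.28e-13, edgeR's quasi-likelihood test). Slc16a3 had 2.10, 14.1 and 25.5 CPM in the Id2 line, against 37.4, 89.5 and 152 CPM in the Axin2 line, lower by 2.40 ± 0.27 (adjusted p = 8.79e-10). For both genes every Id2 library lay below every Axin2 library, though the share of all genes that do so is not reported here. Slc16a1 had 77.2, 103 and 152 CPM in the Id2 line, against 146, 236 and 430 CPM in the Axin2 line, lower by 0.88 ± 0.12 (adjusted p = 6.6e-08). Ldha was lower by 0.47 ± 0.08 (adjusted p = 4.70e-06), with medians of 1454 CPM in the Id2 line and 2575 CPM in the Axin2 line, and Gpi1 by 0.46 ± 0.09 (adjusted p = 2.64e-05), with 222 and 353 CPM. Pkm, Pfkl, Pdk1, Slc16a1 and Slc16a3 were called lower in each of the 4 populations alone. Labelled cells alone called 1 member higher and 10 lower (all genes 15.6 and 15.2%), Lgr5-positive labelled cells 3 and 9 (22.7 and 21%), Lgr5-positive unlabelled cells 1 and 9 (14.5 and 13.1%) and Lgr5-negative unlabelled cells 1 and 7 (15 and 14%).

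Among the 6 members that were higher in the Id2 line, Ldhb had 27.7, 60.9 and 80.2 CPM, against 18.8, 43.9 and 70.1 CPM in the Axin2 line, a difference of 0.71 ± 0.15 (adjusted p = 1.13e-04, edgeR's quasi-likelihood test). The lines overlapped for it. The others were Gapdh at 0.84, Hk2 at 0.54, Pdk3 at 0.44, Pgam2, the muscle phosphoglycerate mutase, at 1.88, and Aldoa at 0.24, whose call was lost on leaving out 7 of 24 libraries. Slc2a1 at -0.49, Hk1 at -0.85 and Pklr at -0.86 completed the lower ones. The mitochondrial lists split in this comparison, with 16 higher and 4 lower of 22 respiratory genes and 12 higher and 8 lower of 23 citric acid cycle genes. The hypoxia-response list had 5 higher and 14 lower of 24. Epithelial markers had 3 higher and 7 lower of 10 (median -0.50). Pancreatic markers were higher for 5 of 8, with sums of 13.7 to 2850 CPM in the Id2 line and 3.22 to 51.1 CPM in the Axin2 line. Liver markers had 4 higher and 1 lower of 8, with sums of 361 to 1340 CPM in the Id2 line and 185 to 951 CPM in the Axin2 line. Smooth muscle markers were higher for 2 of 6, with sums of 3.36 to 802 CPM (median 14.3) in the Id2 line and 5.46 to 223 CPM (median 23.3) in the Axin2 line. Against 30.4% of all genes called higher, mesenchymal markers were higher for 2 of 8 and immune markers for 2 of 5. Neural markers were higher for 1 of 8 and endothelial markers for 1 of 6. Their part in the differences was not tested.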

How the data were processed

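RNA from 45 libraries of sorted embryonic intestinal epithelial cells had been reverse transcribed with the SMARTer kit, amplified for 15 cycles and turned into Ovation Ultralow libraries, per the labels' protocols. The authors deposited whole-number read counts per gene, with no coordinates. Per the submitters' processing notes, bcl2fastq 1.8.4, STAR 2.3.1z13, SAMtools 1.2, HTSeq 0.6.1p1, DESeq2 1.14.1 and build mm9 were used. The sources used here do not name the annotation or the strand setting. The 5 closing lines of each table, which name no gene, held 23.9 to 49% of reads and were left out of totals and tests. Counts without molecular identifiers are not counts of molecules.

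Groups came from the sample titles. Counts were tested with edgeR 4.0.16 in R 4.3.3 (quasi-likelihood, robust, TMM normalization, 15 group means, 30 residual degrees of freedom) on the 15513 of 23366 genes that filterByExpr retained (minimum count 10, minimum total 15), 30 members among them. P-values were adjusted over all genes tested by Benjamini-Hochberg, with a threshold of 0.05. CPM used the total over genes, and log2 differences are TMM-fitted, so a difference may deviate from the ratio of medians. The standard error was derived from the F statistic. Averaged comparisons weigh populations equally. They treat libraries of different populations as independent, although some may come from the same embryos. The replicates are biological per the series' design text, and replicates of a group differed by 14.9 to 357 chi-square units per degree of freedom, so none was a copy of another. Tests were checked on simulated counts of independent libraries, which cannot show the effect of populations that share embryos.

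Exon lengths and shared 50-base windows came from GENCODE transcripts and promoters from RefSeq, both on GRCm38. Members and lists were chosen with earlier results of these data known. In each comparison every called member was counted, and up to 10 with the smallest adjusted p were given by lowest, median and highest level. Of each list up to 4 called genes were named, and some that this rule would name are not reported here. The alternatives tried were limma 3.58.1 (voom with quality weights), DESeq2 1.42.0, RLE size factors, no filter, the compared libraries alone, replicate number as a block, summed libraries, single populations, each library left out, and, chosen after seeing the data, both libraries with over 500 CPM of erythroid transcripts left out and the Axin2 line alone.

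To check whether replicate numbers pair libraries, each library's deviation from its group mean was correlated with that of the library of the same number in the other group, over 9800 genes with a mean log2 CPM of 3 or more. All 3 correlations exceeded 0.1 for Lgr5-positive against Lgr5-negative cells at E13.5 in the Id2 line (0.252 to 0.447) and the Axin2 line (0.244 to 0.681), for posterior against anterior labelled cells (0.342 to 0.416), for labelled cells of unstated Lgr5 state set against Lgr5-negative ones (0.443 to 0.757 anterior, 0.128 to 0.475 in the Id2 line), and for the label among Lgr5-positive Id2 cells (0.203 to 0.565). They did not all exceed it in the other 8 pairs of groups. The pairing is read from the data, since no label explains the numbers.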

Additional observations from a re-analysis of the deposited data

How the results depend on the processing

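All values here are counts of called members or log2 differences. Over the 45 calls of single members in the 4 comparisons with calls, DESeq2 and RLE size factors kept all 45, no filter 43, limma voom 41 and the compared libraries alone 44, while summed libraries kept 30. Leaving out the erythroid-rich libraries kept 17 of 26. With the replicate block all 7 calls of the posterior and Lgr5 comparisons held, and the comparisons of labelled cells and the differences of differences had 0 members called, as without it. The block raised members higher in the posterior part to 10 and lower to 2, and those lower in Lgr5-positive cells to 4. No paired analysis was possible for stage and line because their sides share no embryos. Summed libraries were not run for the lineage label.

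Posterior members called higher numbered 10 with limma voom, 8 with DESeq2, 10 with the compared libraries alone, 1 with summed libraries, 1 without the erythroid-rich libraries and 0 in each single population. Those called lower numbered 6 with limma voom, 2 with DESeq2, 6 with the compared libraries alone and 1 without the erythroid-rich libraries. Of all genes, limma voom called 1051 higher and 1538 lower, DESeq2 436 and 378, and the compared libraries alone 815 and 946. Summed libraries called 151 and 238, and the fit without the erythroid-rich libraries 178 and 107. Members lower in Lgr5-positive cells numbered 4 with limma voom, 1 with no filter, 1 without the erythroid-rich libraries, 1 in the Axin2 line alone and 0 in each setting alone, and 1 was higher within the posterior part. Of all genes, limma voom called 583 lower in Lgr5-positive cells, no filter 162, the fit without the erythroid-rich libraries 110 and the Axin2 line alone 87. DESeq2 called 1 member lower with the label and 1 higher in the difference of the Lgr5 difference between stages. Single populations, with fewer libraries on each side, called 1, 2, 7 and 6 members higher at E15.5 in labelled, Lgr5-positive unlabelled, Lgr5-negative unlabelled and Lgr5-positive labelled cells, and 2 lower in Lgr5-positive unlabelled and 3 lower in Lgr5-positive labelled cells. For the Id2 line they called 1 higher in labelled, 3 in Lgr5-positive labelled, 1 in Lgr5-positive unlabelled and 1 in Lgr5-negative cells, and 7 lower in Lgr5-negative cells. Summed libraries called 1 higher in the Id2 line, where they called 2831 of all genes higher. The sign turned for Eno2 (4.11), Pdk1 (-0.0846) and Slc16a1 (-0.172) between posterior E15.5 and E13.5 in Lgr5-positive labelled cells, and in the Id2 comparison for Aldoa (-0.0144) in Lgr5-negative cells and Pfkp (0.19) in labelled cells. Apart from fewer libraries, the cause was not tested.

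With each library left out in turn, 9 to 15 members were higher and 6 to 6 lower at E15.5, 3 to 6 higher and 0 to 1 lower in the posterior part, 0 to 0 higher and 1 to 3 lower in Lgr5-positive cells, and 5 to 7 higher and 12 to 15 lower in the Id2 line. The remaining comparisons gave 0 to 0. Shares of all genes called with single libraries left out are not reported here. Hk2 lost its posterior call without posterior Lgr5-positive unlabelled replicate 3 (adjusted p = 0.0535, edgeR's quasi-likelihood test), and Pfkp its Id2 call without Axin2 Lgr5-positive labelled replicate 3 of E13.5 (-0.61, adjusted p = 0.0584, same test). Few reads limit the precision for G6pc, Eno1, Eno2 and Fbp1.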

Other observations

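Some members varied together between libraries. These correlations describe log2 CPM over 45 libraries, as deviations from each group's mean, and over 15 group means. They carry no test, and the points share library, depth and, within a replicate number, perhaps embryos. Aldoa and Ldha had a correlation of 0.894 within groups and 0.556 over group means. Tpi1 and Pgam1 had 0.865 and 0.852, Gpi1 and Ldha 0.855 and 0.936, Pfkl and Pkm 0.829 and 0.962, and Pfkl and Pdk1 0.774 and 0.946. These pairs were picked as the highest within groups among all pairs of tested members. Other pairs went the opposite way, such as Pfkm and Pdk3 with -0.619 and -0.834. The E13.5 libraries of Lgr5-positive labelled Axin2 cells held 64.2, 69.5 and 0 CPM of Slc2a3 in replicates 1, 2 and 3, so that replicate 3 stood at the level of E15.5 libraries for this gene.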
